A study of Homo sapiens with 8 samples.

Results

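CTCF peaks were described here in 7 transcripts that encode linkers of the cytoskeleton, a kinesin motor and a component of the nuclear lamina. The genes are PLEC, FLNA, FLNC, TLN1, LMNA, DST and KIF5B. They are 7 of the 271 protein-coding genes with a peak in either of 2 lists, and all peaks that overlap their spans on build hg38 on the strand of the gene were taken. CTCF, a zinc-finger protein best known for organising chromatin, also binds RNA. Its RNA contacts were mapped by eCLIP, in which ultraviolet light links proteins to the RNA they touch before immunoprecipitation with a CTCF antibody, and an input made without antibody gives the background. The cells were IMR90, primary fibroblasts of the human lung. They were either proliferating without treatment, titled wild type, or made senescent, that is lastingly withdrawn from division, with a treatment abbreviated ICM. The series holds 8 libraries: 2 eCLIP and 2 input libraries of each state. Each state was represented by 1 list of peaks normalised to input, whose header names both replicates, and there is no value per replicate. Read depth is therefore unknown and no SD or test over replicates could be given.

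The genes were picked for their function among those with listed peaks, with the numbers of their peaks already known. How many peaks they hold and in which list are accordingly descriptions that support nothing further. Peaks of the same strand at most 50 nt apart were counted as 1 site. No pair of neighbouring peaks lay near that limit: the 5 pairs that merged had 0 nt between them, and the closest of the 17 pairs that did not merge were 325 nt apart. A listed peak does not give the level of an RNA. Of 9 fibroblast marker genes, 4 had a proliferating peak (COL1A1, COL1A2, COL3A1 and DCN) and 1 a senescent peak (DCN), and none of 11 markers of epithelial, endothelial or blood cells had a peak, so the identity of the cells could not be checked by expression.

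These proteins carry force or cargo through the cell. Filamins cross-link actin filaments and tie them to the membrane, talin couples integrins to actin at adhesions, plakins such as plectin and dystonin join intermediate filaments, actin and microtubules, and kinesin-1 walks along microtubules with cargo. A-type lamins form the meshwork under the inner nuclear membrane, to which the cytoskeleton is coupled through the nuclear envelope. In fibroblasts this machinery serves adhesion, contraction and the shape of the nucleus.

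The 7 genes held 24 of the 147 proliferating peaks (16.3%), in 23 of 117 sites, and 9 of the 572 senescent peaks (1.57%), in 5 of 286 sites. All 7 had a proliferating peak, and PLEC, FLNC, DST and KIF5B also had a senescent peak. FLNA, TLN1 and LMNA had a peak in the proliferating list alone. Over the 20056 annotated protein-coding genes, 0.299% had a proliferating and 1.19% a senescent peak. A strand was annotated for 15843 of them, and the others, PLEC among them, were matched to peaks on either strand. Of the 60 protein-coding genes of the proliferating list, 45% were also in the senescent list, and of the 238 of the senescent list 11.3% were also in the proliferating list. Here 4 of 7 genes were in both lists, and nothing is read from that count, since the lists were known when the genes were chosen.

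PLEC had 7 sites, the most in any protein-coding gene of that list together with the collagen gene COL1A2. FLNA had 5 sites, and FLNC, TLN1 and LMNA had 3 each, whereas the median listed protein-coding gene had 1. Of all 60 proliferating protein-coding genes, 18.3% (11 genes) had 3 or more sites, and 5 of those 11 belong to the genes described here, a number that the choice of the genes fixed. DST and KIF5B, with 1 proliferating site each, were the exceptions. In the senescent list DST was the member with most sites, at 2, while the highest number in that list was 5.

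**Figure D1:**
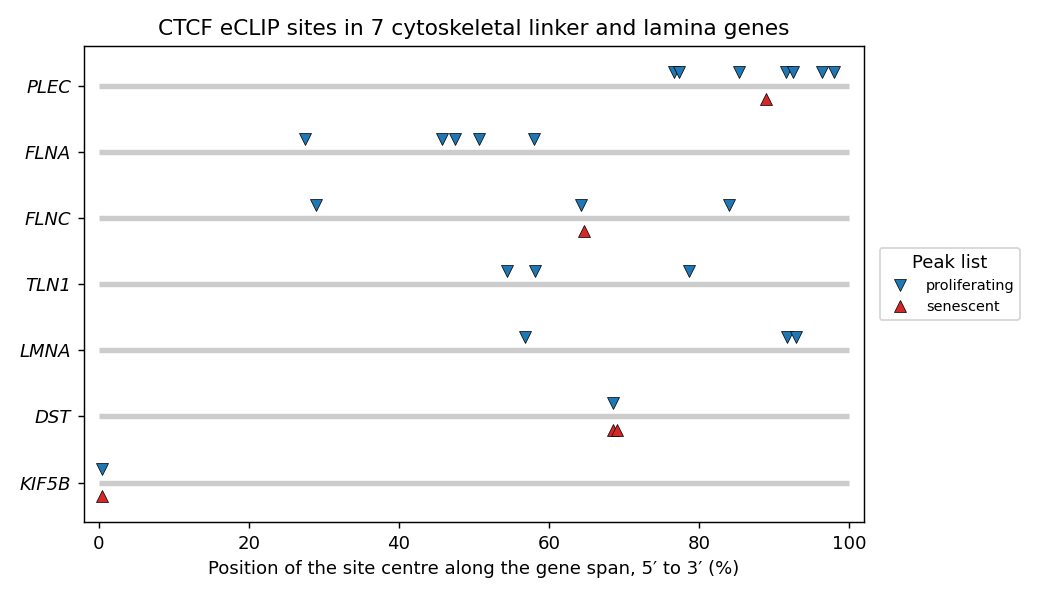
Position of each merged site along its gene, from the 5′ end (0%) to the 3′ end (100%) of the gene span, with blue triangles for the proliferating list and red triangles for the senescent list. PLEC sites lie from 76.6% of the span onwards, FLNA sites between 27% and 58%, and the sites of KIF5B at the start of the gene.

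Plectin, encoded by PLEC (chromosome 8, 143915153 to 143976745, gene ID 5339), is a plakin that links intermediate filaments to actin and to adhesions. Its 7 proliferating sites were each a single peak on the minus strand, 31 to 77 nt wide, and all lay within 13158 nt at the 3′ end of a gene of 61593 nt, between 76.6% and 97.9% of its span. From 5′ to 3′, the peaks had signal values, the authors' score normalised to input, of 3.16, 4.41, 3.65, 3.38, 3.48, 3.29 and 3.26. Only the peak at 143929153 to 143929199 stood above 4, and the other 6 lay between 3.16 and 3.65. The authors' -log10 p of the 7 peaks against input ran from 6.51 to 12.5. The strand of PLEC was taken from its peaks, since the annotation used here gave none.

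The single senescent PLEC peak lay at 143921965 to 143922028, at 88.9% of the span. It overlapped none of the proliferating sites and fell between the peaks at 143924154 and 143920367, 2125 nt and 1560 nt away. Its signal value of 3.99 was at the 26.4th percentile of the senescent list, and its -log10 p of 25.9 at the 77.1st. The senescent peak thus had a modest score but a small p-value within its list.

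The filamins FLNA and FLNC are paralogous actin cross-linkers, and FLNC is the form best known from muscle. FLNA (chromosome X, 154348531 to 154374634, gene ID 2316) had 6 proliferating peaks in 5 sites on the minus strand, between 27.5% and 58.0% of the span. From 5′ to 3′ their signal values were 3.005, 3.011, 3.08, 3.82, 3.14 and 3.06. The lowest value in the whole proliferating list was 3.003, so 5 of the 6 FLNA peaks sat at or below the 18.4th percentile, and only the peak at 154362246 to 154362267 was above the list's median of 3.54. The first 2 peaks abutted and formed the only proliferating site of more than 1 peak in these genes, at 154367398 to 154367527. Its 5′ peak had a -log10 p of 14.7, the highest of all 24, at a signal value near the floor of the list. No senescent peak was listed in FLNA.

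FLNC (chromosome 7, 128830406 to 128859272, gene ID 2318) had 3 proliferating peaks on the plus strand, spread more widely, at 29.0%, 64.2% and 84.0% of the span. Their signal values were 3.10, 3.26 and 3.62 from 5′ to 3′, with -log10 p values of 8.86, 7.69 and 10.1. The most 3′ peak, at 128854618 to 128854679, also overlaps the antisense lncRNA gene FLNC-AS1, which lies on the other strand. The only senescent peak, at 128849057 to 128849065, was 9 nt wide and lay 84 nt downstream of the middle proliferating peak without touching it. It reached a signal value of 5.66, at the 87.2nd percentile of the senescent list, but its -log10 p of 4.74 was at the 2.97th percentile. FLNC-AS1 was the only other annotated gene under any of the 33 peaks.

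Talin 1, encoded by TLN1 (chromosome 9, 35696948 to 35732195, gene ID 7094), connects integrins with the actin cytoskeleton. Its 3 proliferating peaks lay on the minus strand at 54.4%, 58.2% and 78.6% of the span, with signal values of 3.57, 3.86 and 3.50. These are close to or above the list's median, while their -log10 p values of 3.35, 3.39 and 4.35 were at or below the 8.84th percentile of the list, whose lowest value was 3.06. All 3 TLN1 peaks thus had a lower -log10 p than any FLNA peak, and a higher signal value than 5 of the 6 FLNA peaks. TLN1 had no senescent peak.

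LMNA (chromosome 1, 156082573 to 156140081, gene ID 4000) encodes lamins A and C, and a toxic, permanently farnesylated form of lamin A causes a premature ageing syndrome. Its 3 proliferating peaks lay on the plus strand, the first at 156115206 to 156115226 and the other two near the 3′ end at 156135216 to 156135307 and 156135908 to 156136054. Of the 3 transcript starts in the RefSeq promoter table, the nearest upstream of the first peak lay 8490 nt before it. From 5′ to 3′ the signal values were 3.51, 3.14 and 3.01 and the -log10 p values 6.93, 8.27 and 12.0, so the higher score went with the larger p-value. The peaks were 21, 92 and 147 nt wide in the same order, and the last is the widest of all peaks in these genes. LMNA had no senescent peak.

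**Figure D2:**
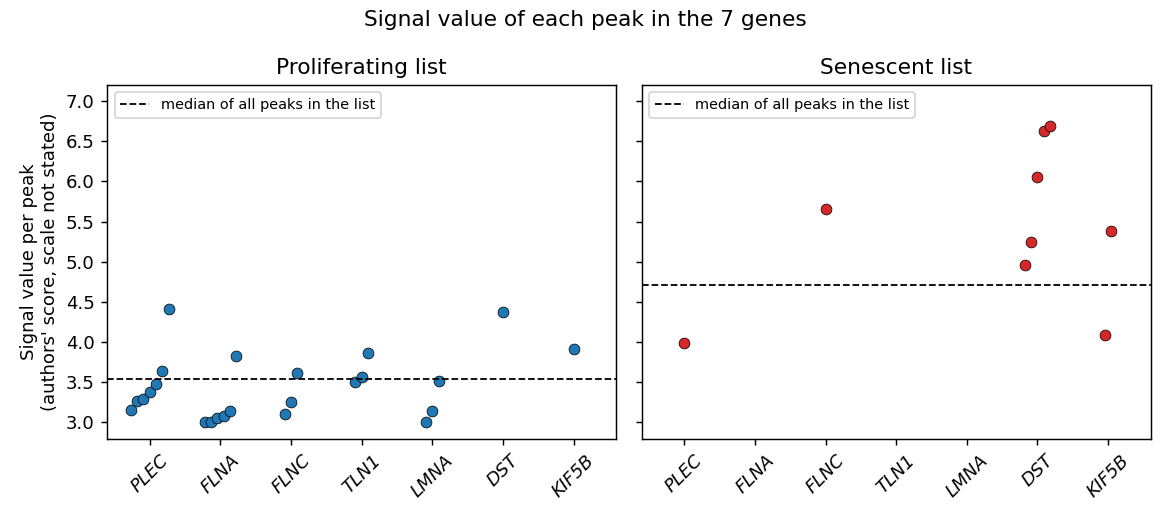
Signal value (authors' score per peak, scale not stated) of each peak in the 7 genes, with 1 point per peak and a dashed line at the median of all peaks of the list. In the proliferating list 16 of 24 points lie below the median of 3.54, and in the senescent list 2 of 9 lie below the median of 4.71.

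DST and KIF5B differed from the other genes in that both lists held the same site. Dystonin, encoded by DST (chromosome 6, 56457996 to 56954830, gene ID 667), is a giant plakin that joins cytoskeletal filaments, and at 496835 nt its gene is the longest of the 7. Its proliferating peak, at 56614356 to 56614409 on the minus strand, had a signal value of 4.37 and a -log10 p of 3.39. The overlapping senescent site spanned 56614356 to 56614433, so the 3′ edges coincided to the base, the 5′ edges were 24 nt apart and all 54 nt of the proliferating peak were covered. From 5′ to 3′, the 3 abutting senescent peaks of the site had signal values of 4.96, 6.05 and 6.62 and -log10 p values of 15.4, 28.2 and 29.5. The score was thus highest in the 4 nt at the edge that the lists share.

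A further DST site appeared in the senescent list alone, 2752 nt downstream at 56611559 to 56611603. Here the 5′ peak had the higher signal value, 6.69 against 5.25, and the 3′ peak the higher -log10 p, 50.98 against 36.9. These were the highest signal value and the highest -log10 p of any peak in the 7 genes. The sites lay 28456 and 31286 nt downstream of the nearest of the 3 annotated DST starts, and at 68.5% and 69.1% of the span.

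KIF5B (chromosome 10, 32009015 to 32056425, gene ID 3799) encodes the ubiquitous heavy chain of kinesin-1, a motor that moves cargo towards microtubule plus ends. It was the only member bound near its start. The proliferating peak, at 32056180 to 32056252 on the minus strand, began 173 nt downstream of the annotated start, with a signal value of 3.91 and a -log10 p of 4.49. The senescent site, at 32056185 to 32056296, began 129 nt downstream of the start and overlapped the proliferating peak over 68 of its 73 nt, with 3′ edges 5 nt apart. Its 5′ peak, 106 nt wide, had a signal value of 4.09 and a -log10 p of 14.5, and its 3′ peak, 6 nt wide, had 5.38 and 9.09. Of the sites in other protein-coding genes with a known strand, 3 of 57 in the proliferating list (5.26%) and 27 of 212 in the senescent list (12.7%) lay in the first 5% of the gene span.

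**Figure D3:**
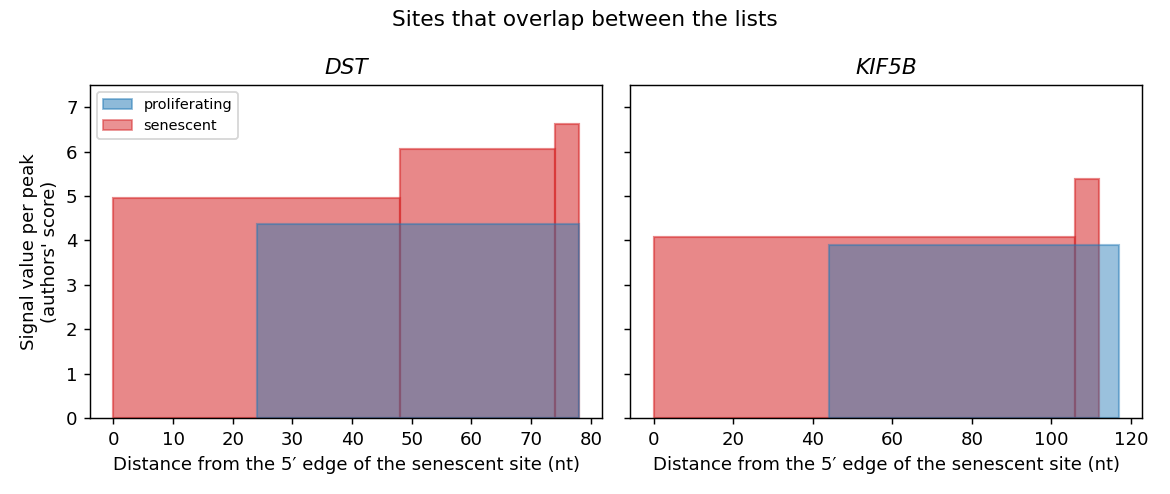
Peaks of the DST and KIF5B sites found in both lists, drawn from the 5′ edge of the senescent site (distance in nt), with bar width equal to peak width and bar height equal to the authors' signal value. The 3′ edges of the lists coincide in DST and are 5 nt apart in KIF5B, and heights of different lists are not on a scale shown to be common.

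Across the 7 genes, 2 of 23 proliferating sites (8.70%) and 2 of 5 senescent sites (40%) overlapped a site of the other list. Over all sites, 19.7% of proliferating and 8.04% of senescent sites did. With so few sites, and with genes chosen from these lists, no difference from the background can be read from these shares. The 84 nt between the lists' nearest FLNC peaks made them neighbours but not 1 shared site.

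Along the span, the median proliferating site of the 7 genes was at 68.5%, and 12 of 23 sites (52.2%) lay in the last of 3 equal parts. The other 57 proliferating sites in protein-coding genes of known strand had a median of 64.6%, with 49.1% there. The 5 senescent sites also had a median of 68.5%, against 53.2% for the other 212. A further 27 proliferating and 59 senescent sites lay in other protein-coding genes without an annotated strand and were left out. PLEC also had none but was kept, with the strand of its peaks, so the 2 sides were not handled alike. Spans include introns, and whether a site was exonic, intronic or in an untranslated region was not analysed here. Sites of 1 gene are not independent, and 7 of the 12 sites in the last part were in PLEC.

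Within the proliferating list, the 24 peaks had a median signal value of 3.34 and a median -log10 p of 8.89, against 3.54 and 10.6 for all peaks. Of the 24 peaks, 22 had a signal value below 4, and 67.3% of all proliferating peaks did. In the senescent list the 9 peaks had a median signal value of 5.38 and a median -log10 p of 25.9, against 4.71 and 12.3 for all peaks, and 5 of the 9 were in DST. None of the 33 peaks was at the ceiling of 400 for the -log10 p, which 13 proliferating and 36 senescent peaks reached. Proliferating peaks in these genes were 7 to 147 nt wide with a median of 53.5 nt, against 41 nt in the whole list, and senescent peaks 4 to 106 nt with a median of 24 nt, against 16.5 nt. Sites made of several merged peaks were 1 of 23 in the proliferating list (16.2% of all its sites) and 3 of 5 in the senescent list (70.6% of all its sites).

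**Figure D4:**
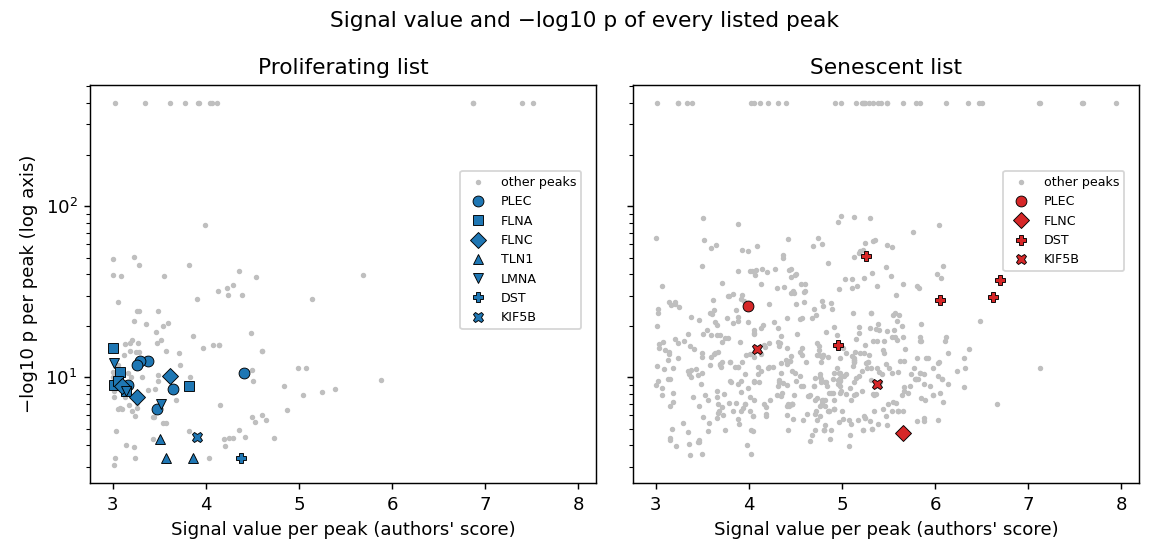
Signal value (linear axis) against -log10 p (log axis) of every peak, with other peaks in grey and peaks of the 7 genes as coloured symbols, in 1 panel per list. In the proliferating list, 5 of the 6 FLNA peaks lie near the left edge and 1 at a signal value of 3.82, proliferating TLN1, DST and KIF5B peaks lie below a -log10 p of 4.5, and 3 senescent DST peaks lie at signal values from 6.05 to 6.69.

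The lengths of the genes differed widely, from 26104 nt in FLNA to 496835 nt in DST, with a median of 47411 nt. The protein-coding genes of the proliferating list had a median length of 35837 nt and those of the senescent list 61277 nt. Per 10 kb of span, FLNA had the most proliferating sites (1.92), followed by PLEC (1.14), FLNC (1.04), TLN1 (0.851), LMNA (0.522), KIF5B (0.211) and DST (0.0201). The shortest gene thus had 5 proliferating sites and the longest 1.

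Some other genes of the same structures were also listed. Of 92 further genes of actin, adhesion, intermediate filaments, the lamina and microtubules, 5 had a proliferating and 5 a senescent peak (5.43% each), against the background of 0.299% and 1.19% of protein-coding genes given above, and 1 gene, MYH9, had both. This list was written with earlier results of these data known, so no enrichment is read from these shares. Whether the abundance of these RNAs moves with their listing was not tested.

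Among 17 genes of actin and myosin, ACTB, ACTG1, CFL1 and MYH9 had proliferating peaks (23.5%) and MYH9 a senescent site (5.88%). MYH9, the heavy chain of non-muscle myosin IIA, had proliferating peaks at 71.0% and 80.0% of its span, with signal values of 3.01 and 3.31, and a senescent site at 83.4% with a highest value of 3.88, and these did not overlap. ACTB and ACTG1, the cytoplasmic actins, had highest signal values of 3.28 and 3.19, and CFL1, the actin-severing cofilin, had 3.01. Among 25 genes of actin cross-linking and adhesion, none had a proliferating peak. SPTBN1 (a spectrin), VCL (vinculin, which binds talin) and LPP (an adhesion LIM protein) had senescent peaks (12%). Their highest signal values were 4.94, 3.03 and 6.31. Among 11 genes of plakins and intermediate filaments, NES, encoding nestin, had a peak (9.09%), in the proliferating list with a signal value of 3.28. Among 26 kinesin, dynein and microtubule genes, DYNC1H1, the heavy chain of cytoplasmic dynein, had a peak (3.85%). It was in the senescent list, with a highest value of 3.66. None of the 13 further genes of the lamina and of the complex that links it to the cytoskeleton had a peak in either list. Among them were the B-type lamin genes LMNB1 and LMNB2. Over all protein-coding genes the shares were 0.299% proliferating and 1.19% senescent. A count of 0 among 13 genes is close to that background, and nothing is read from it.

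Genes were also compared by the pair of percentile ranks of their highest signal value among the protein-coding genes of each list. Over the 23 other genes in both lists, the nearest to FLNC was RANGAP1, at 8.65 percentile points, the nearest to KIF5B was EEF2, at 12.5, the nearest to PLEC was SFPQ, at 15.1, and the nearest to DST was HNRNPD, at 15.2. DST ranked at the 99.2nd percentile of senescent and the 70.0th of proliferating genes, and PLEC at the 21.0th and the 73.3rd.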

How the data were processed

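The members and gene lists were chosen with earlier results of these data known. Per the file headers, the authors deposited input-normalised peaks on hg38 in narrowPeak format, 1 list per state. The deposited signal value is a score per peak whose scale, linear or log2, is not stated, and the deposited -log10 p-value is that of the peak against input, with a ceiling of 400. Aligner, peak caller, thresholds and the joining of replicates are not given in the sources used here. The sources file each list under eCLIP replicate 1, but its header names both, and it was assumed to join them. With no counts, depth is unknown.

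Peaks were matched to RefSeq gene spans (GRCh38.p14) by overlap and strand (Python 3.11.15). Strand came from the RefSeq promoter table, which held 6 of the 7 genes. Genes without strand there were matched on either strand. Same-strand peaks within 50 nt were merged, and lists were compared by an overlap of at least 1 base. Relative position is that of the site centre. Merging was tested on simulated data. No statistical test was made. All 7 genes were named, and of the further genes all with a peak.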

Additional observations from a re-analysis of the deposited data

How the results depend on the processing

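Of 38 alternatives over 14 values, 27 left the count within 1.5 times, a position within 5 percentage points or a median within 10%, and 11 did not. A minimum -log10 p of 10 left 8 of the 24 proliferating peaks, in 8 sites, and 81 of the 147 peaks of the whole list. It left 1 gene in both lists (PLEC) and 0 shared sites, and moved the median proliferating position to 87.7%. TLN1, DST and KIF5B then had no proliferating peak. A minimum signal value of 4 left 2 of the 24 proliferating peaks, in 2 sites (PLEC and DST), and 48 of the 147 peaks of the whole list. It left 1 gene in both lists (DST) and 1 shared site. With the senescent list reduced to its 147 peaks of highest signal value, 5 senescent peaks remained in these genes and 1 of the 92 further genes. Each of these settings shortens a whole list, and why the values moved was not tested. Of the 8 proliferating peaks left at a -log10 p of 10, 4 were in PLEC. No paired analysis was possible because neither file separates its replicates, and none could be left out. Unknown depth limits any reading of a missing peak.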

Other observations

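Several -log10 p values in these genes recur exactly. DST (56614356 to 56614409) and TLN1 (35711655 to 35711723) share a proliferating value of 3.39 with each other and with 1 further peak, and PLEC and FLNA share 8.95. In all, 49 of 134 proliferating peaks below the ceiling (36.6%) and 260 of 536 senescent peaks (48.5%) have a -log10 p identical to that of another peak of the list.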
